A study of Mus musculus with 30 samples.

Results

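The 9 genes described here code for the G1 cyclins and for a set of the inhibitors that act against them in mouse embryonic stem cells (ESCs). They are the D cyclins Ccnd1, Ccnd2 and Ccnd3, the E cyclins Ccne1 and Ccne2, the Cip/Kip inhibitors Cdkn1a (p21) and Cdkn1b (p27), and the INK4 inhibitors Cdkn2a (p16Ink4a and p19Arf) and Cdkn2b (p15Ink4b). They were chosen by gene symbol, and all 9 were found among the 52630 genes of one count table and the 55487 genes of the other. All 9 passed the filter on low counts in both, among 16049 and 16054 genes tested. The cells were of the line E14tg2a. In the time course they were kept in Serum/LIF, a glucose medium with serum and the cytokine LIF, or were moved for 3, 9 or 24 h to EMM, the same medium with galactose in place of glucose and without pyruvate. The Serum/LIF libraries carry a time of 0 h, while the treatment protocol gives them 24 h in that medium, so the age of the control culture is not settled. In the passage experiment they were cultured for 10 or 20 passages (P10, P20) in Serum/LIF, in EMM, or in 2i/LIF, which holds LIF and a pair of kinase inhibitors, against MEK and GSK3. Each of the 10 groups had 3 libraries, which the study's methods describe as biological replicates from independent experiments, and no group carried a gene edit.

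Cells pass from G1 into S phase when cyclin-dependent kinases (CDKs) phosphorylate the retinoblastoma family of pocket proteins and so free the E2F transcription factors. D cyclins activate CDK4 and CDK6, are strongly dependent on mitogen signalling, and are opposed by INK4 inhibitors. E cyclins activate CDK2 and are opposed by Cip/Kip inhibitors, which in turn can be bound and held by D cyclin complexes. Mouse ESCs in serum are known for a short G1 phase, high cyclin E and little effect of the pocket proteins, and 2i/LIF is known to lengthen G1.

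Library totals ran from 24074132 to 35301962 counts in the time course and from 6944904 to 27912928 in the passage experiment. A normalized count below is a library's count scaled by edgeR's trimmed mean of M values (TMM) within its experiment, so levels are compared only within an experiment. The summed normalized count of 5 ESC markers (Pou5f1, Sox2, Nanog, Zfp42, Esrrb) was between 100211 and 108827 in each time-course library. Its members moved apart: from Serum/LIF to 3 h the group means of Sox2 (20755 to 13743), Nanog and Zfp42 were lower. That of Esrrb was higher (22782 to 34340), and Pou5f1 was nearly level. At P10 the ESC sum was 40438 to 44748 in Serum/LIF, 55485 to 63419 in EMM and 44574 to 47068 in 2i/LIF. EMM stood apart from the others there. At P20 the sum was 47976 to 52000, 42849 to 43867 and 49860 to 53703 in the same order. In the group means at P10 Pou5f1 (27374, against 17932 in Serum/LIF and 16803 in 2i/LIF), Sox2, Zfp42 and Esrrb were highest in EMM. Nanog was lowest there, at 3850 against 4618 and 7532. At P20 Nanog (3512, against 7590 and 10828) and Zfp42 were lowest in EMM, while Pou5f1, Sox2 and Esrrb were not. The sum of 5 fibroblast markers (Col1a1, Col1a2, Col3a1, Thy1, Lum) differed strongly by medium in the passage experiment: it was 2200 to 7069 in Serum/LIF, 142 to 364 in EMM and 45.0 to 98.7 in 2i/LIF. Serum/LIF replicate 3 at P20 held the highest of these sums, and Lum, a defining fibroblast gene, averaged at most 8.31 normalized counts in any passage group. In bulk RNA, fewer cells expressing a gene cannot be told apart from less RNA of it per cell.

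The promoters of the 4 inhibitor genes are shown because in EMM at P10 3 of these genes were lower than in Serum/LIF and 1 was higher (values below). Each line runs from 250 bases before a RefSeq start site to the last base before an annotated exon, on GRCm38.p6, 5′ to 3′ on the strand of the gene, with capitals marking matches on either strand to E2F (the 4 forms TTCCCGC, then TTCGCGC, then TTGGCGC and lastly TTGCCGC), SP1 (GGGCGG) or NF-Y (CCAAT) motifs. Cdkn1a and Cdkn2a each have 2 start sites, and those of Cdkn2a give the separate products p16Ink4a and p19Arf, which gene-level counts do not separate.
Cdkn1a, chr17:29090729-29090975, plus strand: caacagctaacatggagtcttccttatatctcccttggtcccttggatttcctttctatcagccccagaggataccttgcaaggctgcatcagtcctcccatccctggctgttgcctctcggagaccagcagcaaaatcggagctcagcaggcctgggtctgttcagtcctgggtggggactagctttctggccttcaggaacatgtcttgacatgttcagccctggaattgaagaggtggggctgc
Cdkn1a, chr17:29093519-29093768, plus strand: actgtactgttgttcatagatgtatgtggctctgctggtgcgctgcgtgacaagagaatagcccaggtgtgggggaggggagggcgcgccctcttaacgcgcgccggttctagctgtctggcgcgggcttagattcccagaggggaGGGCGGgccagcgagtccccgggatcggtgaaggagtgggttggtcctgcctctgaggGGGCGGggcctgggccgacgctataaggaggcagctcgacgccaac
Cdkn1b, chr6:134920151-134920400, plus strand: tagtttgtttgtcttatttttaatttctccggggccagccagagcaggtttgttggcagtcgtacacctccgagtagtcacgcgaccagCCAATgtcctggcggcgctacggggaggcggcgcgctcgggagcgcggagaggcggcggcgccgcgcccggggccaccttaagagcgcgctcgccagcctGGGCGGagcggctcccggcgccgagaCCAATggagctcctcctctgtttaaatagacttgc
Cdkn2a, chr4:89282193-89282442, minus strand: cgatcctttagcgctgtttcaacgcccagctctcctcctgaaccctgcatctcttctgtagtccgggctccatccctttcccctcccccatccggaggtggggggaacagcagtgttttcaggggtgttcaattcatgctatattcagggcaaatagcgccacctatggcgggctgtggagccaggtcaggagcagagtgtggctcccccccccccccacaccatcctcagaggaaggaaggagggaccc
Cdkn2a, chr4:89294654-89294869, minus strand: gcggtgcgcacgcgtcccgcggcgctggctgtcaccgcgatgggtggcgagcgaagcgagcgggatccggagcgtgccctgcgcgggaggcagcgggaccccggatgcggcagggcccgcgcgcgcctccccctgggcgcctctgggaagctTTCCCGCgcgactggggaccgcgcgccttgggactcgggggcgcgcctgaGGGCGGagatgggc
Cdkn2b, chr4:89311040-89311282, minus strand: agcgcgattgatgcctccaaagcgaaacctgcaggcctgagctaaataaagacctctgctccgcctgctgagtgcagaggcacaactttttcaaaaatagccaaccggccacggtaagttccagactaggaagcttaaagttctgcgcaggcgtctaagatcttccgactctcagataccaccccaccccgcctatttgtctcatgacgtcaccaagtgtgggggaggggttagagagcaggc
In the full windows of 300 bases, 9.57% of 32851 RefSeq promoters held an E2F match, 35.7% an SP1 match and 37.4% an NF-Y match. Among the inhibitors an E2F match stood in 1 window, the distal Cdkn2a start, 98 bases before it. Cdkn1b held 3 NF-Y matches, of which 2 are printed, and the distal Cdkn1a start held none of the motifs searched. The E-box CACGTG (7.15% of all windows), the TCF/LEF letters CTTTGAT (3.73%) and the FOXO letters GTAAACA (3.65%) had no match in the windows of these 4 genes. The SP1 match of the proximal Cdkn2a window overlaps its NF-Y match and lies past the printed stretch. The table holds windows for Ccnd3 and Ccne1 as well, and that of Ccne1 carried 4 SP1 matches and no E2F match.

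After 24 h in EMM 4 of the 5 cyclin genes were lower than in Serum/LIF, and Cdkn1b went down before it went up. Ccnd1 and Ccne1 had lower means at each later time, Ccnd2 was lowest at 9 h, and Ccnd3 ended above its starting level. At 3 h 4 of 9 genes were lower than in Serum/LIF and none was higher, where 34.5% of all tested genes were called at an adjusted p under 0.01, 18.2% lower and 16.3% higher. At 9 h 5 were lower and 1 higher (of all genes 38.2% called, 19.7% lower and 18.5% higher). By 24 h 5 were lower and 2 higher (44.0% called, 22.2% lower and 21.8% higher). The median log2 fold change of the 9 genes was −0.22, −0.29 and −0.37 at the 3 times, against −0.01, 0.00 and 0.00 over all tested genes. With a fold threshold of 1 on the log2 scale added, the calls left were 0, 1 and 0, the 1 being Ccnd2 at 9 h, where 4.22%, 5.55% and 8.18% of all genes passed.

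**Figure D1:**
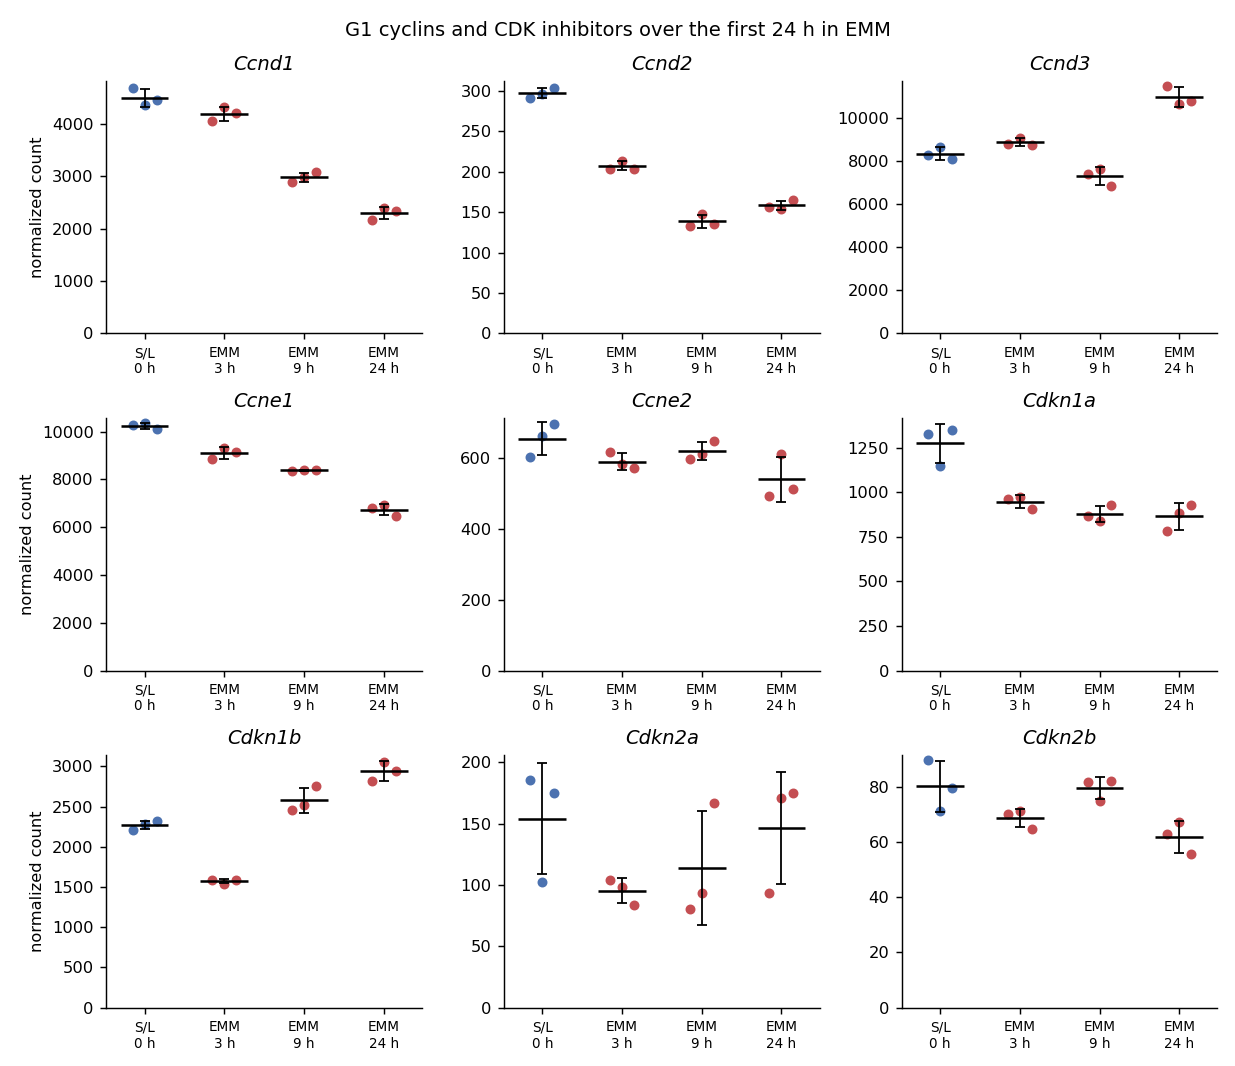
Normalized counts (linear axes from 0) of the 9 genes in the time course, by group on the horizontal axis. Points are the 3 libraries of a group and black bars the mean ± SD. Ccnd1 and Ccne1 step down from 0 h to 24 h, and Cdkn1b dips at 3 h and is highest at 24 h.

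Ccnd1 (chr7:144929931-144939925, minus strand), the D cyclin most closely tied to mitogen signalling, had 4691, 4352 and 4455 normalized counts in the Serum/LIF libraries. It had 4048, 4314 and 4209 at 3 h in EMM, 2898, 2978 and 3072 at 9 h, and 2172, 2395 and 2344 at 24 h. All libraries at 9 h and 24 h lay below all Serum/LIF and 3 h libraries, and the 24 h libraries lay below those of 9 h. At 3 h the log2 fold change was −0.10 (SE 0.04, edgeR quasi-likelihood test with Benjamini-Hochberg adjustment, adjusted p = 0.0709), which did not pass. It passed at 9 h, at −0.59 (SE 0.04, adjusted p = 5.96e-08), and at 24 h, at −0.97 (SE 0.05, adjusted p = 2.34e-10), which is a level 1.95-fold lower. LTO1, a gene on the opposite strand that shares 1100 exon bases with Ccnd1, moved the other way, with a log2 fold change of 0.41 at 9 h and 0.46 at 24 h.

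Ccnd2 (chr6:127125162-127152193, minus strand), a D cyclin of low level here, had 291, 296 and 303 normalized counts in Serum/LIF and 204, 213 and 204 at 3 h. It had 133, 148 and 136 at 9 h and 157, 154 and 164 at 24 h. No group overlapped another, and the lowest values were those of 9 h. The log2 fold change against Serum/LIF was −0.52 at 3 h (SE 0.07, adjusted p = 2.67e-05), −1.10 at 9 h (SE 0.07, adjusted p = 2.1e-08) and −0.91 at 24 h (SE 0.07, adjusted p = 8.76e-08). Of the 9 genes it was the one whose group means spanned the widest range in the time course, 1.09 on the log2 scale. The tested genes whose log2 CPM (counts scaled to library size) followed it most closely over the 12 libraries were Mxra7 (Pearson r 0.992), Herc4 (0.987) and Mlxipl (0.987), points that share the 4 groups and their libraries.

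Ccnd3 (chr17:47505051-47599691, plus strand) had 8282, 8655 and 8067 normalized counts in Serum/LIF, 8781, 9075 and 8749 at 3 h, 7391, 7620 and 6826 at 9 h, and 11460, 10631 and 10762 at 24 h. The 24 h libraries stood above all others and those of 9 h below all others. Its log2 fold change was 0.39 at 24 h (SE 0.05, adjusted p = 3.21e-06), and the fall at 9 h was −0.20 (SE 0.05, adjusted p = 0.0022). The 9 h call was lost without Serum/LIF replicate 2 or EMM 9 h replicate 3 (adjusted p = 0.0219 and 0.0199) and when only those groups were fitted. Bysl, which shares 361 exon bases with Ccnd3 on the other strand, had a log2 fold change of −0.25 at 9 h and −0.40 at 24 h.

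Per kilobase of exon, Ccne1 (chr7:38097984-38107534, minus strand) had the highest level of the 9 genes in all groups of the time course, at 3846 ± 48.3 normalized counts per kilobase in Serum/LIF (SD, n = 3). Its normalized counts were 10264, 10353 and 10100 in Serum/LIF, 8854, 9327 and 9134 at 3 h, 8344, 8378 and 8410 at 9 h, and 6793, 6923 and 6480 at 24 h, with no overlap between any groups. The log2 fold change went from −0.17 (SE 0.03, adjusted p = 0.000948) to −0.29 (SE 0.03, adjusted p = 6.45e-06) and −0.60 (SE 0.03, adjusted p = 2.24e-09), a level 1.52-fold lower at 24 h. Without the filter on low counts the 3 h value of Ccne1 did not pass (−0.14, adjusted p = 0.0125). The rank per kilobase rests on the joined length of all annotated exons, 2662 bases for Ccne1 and 8775 for Ccnd3. In normalized counts not divided by length, Ccnd3 averaged 10951 and Ccne1 6732 at 24 h. Ccne2 (chr4:11191351-11204779, plus strand), the second E cyclin, had 539 ± 63.0 normalized counts at 24 h and 653 ± 47.0 in Serum/LIF (SD, n = 3). Its difference at 24 h, −0.28 (SE 0.08, adjusted p = 0.00686) was lost without any of 4 libraries (Serum/LIF replicates 2 and 3, EMM 24 h replicates 1 and 3), with adjusted p from 0.0291 to 0.0442. At 3 h and 9 h Ccne2 did not pass, with 95% intervals of −0.32 to 0.01 and −0.25 to 0.08.

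Cdkn1a (chr17:29090976-29100727, plus strand), a p53 target that binds and inhibits cyclin-CDK complexes, fell within 3 h and stayed there. It had 1326, 1146 and 1350 normalized counts in Serum/LIF, 961, 973 and 905 at 3 h, 866, 837 and 927 at 9 h, and 781, 883 and 929 at 24 h. Every EMM library lay below every Serum/LIF library, while the 3 times in EMM overlapped each other. The log2 fold change was −0.43 at 3 h (SE 0.07, adjusted p = 0.000194) and −0.56 at 24 h (SE 0.07, adjusted p = 1.17e-05). Between 3 h and 24 h it was −0.13 (95% interval −0.29 to 0.03), which did not pass.

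Cdkn1b (chr6:134920401-134925513, plus strand), the inhibitor that restrains cyclin E and CDK2 and is itself held by D cyclin complexes, changed direction. It had 2210, 2282 and 2314 normalized counts in Serum/LIF, 1593, 1542 and 1589 at 3 h, 2458, 2513 and 2754 at 9 h, and 2813, 3056 and 2947 at 24 h. All 4 groups were apart from each other, with 3 h lowest and 24 h highest. The log2 fold change against Serum/LIF was −0.53 at 3 h (SE 0.05, adjusted p = 3.83e-07) and 0.37 at 24 h (SE 0.05, adjusted p = 6.67e-06). From 3 h to 24 h in EMM it was 0.90 (SE 0.05, adjusted p = 2.49e-09), a 1.87-fold rise and the largest of the 9 genes in that comparison, in which 2 rose and 3 fell. Of all genes 40.1% were called there, 20.8% higher and 19.2% lower, and 4.44% also passed the fold threshold, which none of the 9 did. The value at 9 h, 0.18 (SE 0.05, adjusted p = 0.0041), was lost without Serum/LIF replicate 1 or EMM 9 h replicate 3 (adjusted p = 0.0148 and 0.0122), with library totals in place of TMM and when only those groups were fitted.

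Both INK4 genes were low, and the libraries of Cdkn2a spread widely. Cdkn2a (chr4:89274471-89294653, minus strand) had 185, 103 and 175 normalized counts in Serum/LIF, 104, 98.6 and 83.7 at 3 h, 80.8, 93.8 and 167 at 9 h, and 93.8, 171 and 175 at 24 h. In Serum/LIF, 9 h and 24 h 1 library each stood well apart from its group, and all groups overlapped. None of its comparisons passed, the nearest being 3 h with a log2 fold change of −0.68 (SE 0.29, adjusted p = 0.0625). Without the filter on low counts this comparison passed (adjusted p = 3.47e-06), as did 9 h (−0.41, adjusted p = 0.0056) and the rise from 3 h to 24 h (0.62, adjusted p = 1.05e-05). In that fit the 3 h log2 fold change was nearly the same, −0.65, but its SE was 0.13 in place of 0.29. Cdkn2b (chr4:89306299-89311039, minus strand), which lies beside Cdkn2a, had 89.6, 71.1 and 79.5 normalized counts in Serum/LIF and 62.8, 67.0 and 55.5 at 24 h. The difference, −0.37 on the log2 scale (SE 0.13, adjusted p = 0.0244), did not pass.

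Marker sums of other cell types also moved during these hours. The fibroblast sum was 1796 to 1885 in Serum/LIF and 1238 to 1468 at 24 h, and that of 6 primitive endoderm markers went from 408 to 443 up to 739 to 752. That of 4 trophoblast markers was 172 to 209 in Serum/LIF and 308 to 338 at 24 h. Within that list Gata3 (27.9 to 115 in the group means) and Krt7 (87.4 to 179) were higher at 24 h, while Cdx2 was lower (70.7 to 33.8) and Elf5 was near 0. The part of these markers in the changes of the 9 genes was not tested.

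After 10 passages in EMM, against Serum/LIF, Ccnd1 was 17.4-fold and Ccnd2 20.3-fold lower, Cdkn1a, Cdkn2a and Cdkn2b were lower by 2.05-fold to 3.17-fold, and Cdkn1b and Ccnd3 were higher. Ccne1 and Ccne2 did not pass. At P20 the cyclin D1 gap was smaller, Ccnd3 and Ccne1 were now lower too, and Cdkn1b was 1.97-fold higher. At P10 5 genes were lower and 2 higher, where 37.4% of all tested genes were called, 18.7% in each direction, and 5 of the 7 passed a log2 fold change of 1 in size, where 17.1% of all genes did. At P20 6 were lower and 1 higher (of all genes 26.0% called, 12.5% lower and 13.6% higher), and 4 passed the fold threshold, where 9.63% of all genes did. The median log2 fold change of the 9 genes was −1.03 at P10 and −0.97 at P20, against 0.01 and 0.00 over all tested genes.

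**Figure D2:**
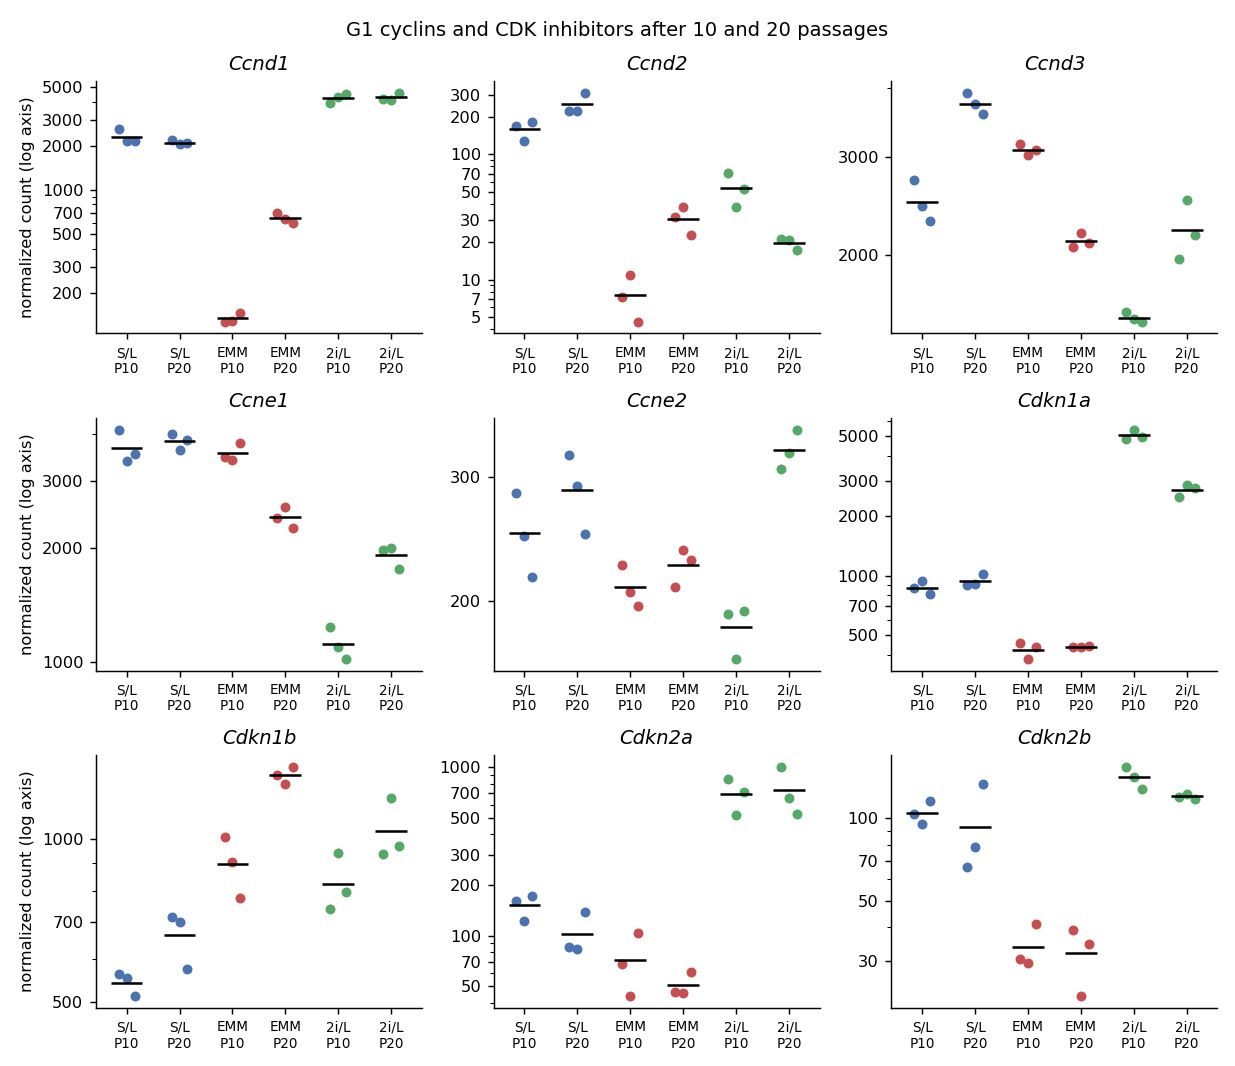
Normalized counts (logarithmic axes) of the 9 genes in the passage experiment, by medium and passage on the horizontal axis (S/L, Serum/LIF; 2i/L, 2i/LIF). Points are the 3 libraries of a group and black bars the mean. Ccnd1 and Ccnd2 are lowest in EMM at P10, and Cdkn1a and Cdkn2a are highest in 2i/LIF.

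Ccnd1 had 2600, 2157 and 2164 normalized counts in Serum/LIF at P10 and 127, 129 and 147 in EMM. At P20 it had 2183, 2049 and 2095 in Serum/LIF and 702, 632 and 598 in EMM. In 2i/LIF it had 3938, 4302 and 4528 at P10 and 4194, 4095 and 4619 at P20. The 3 media did not overlap at either passage, with 2i/LIF highest and EMM lowest. EMM against Serum/LIF was −4.12 on the log2 scale at P10 (SE 0.11, adjusted p = 1.62e-14) and −1.71 at P20 (SE 0.09, adjusted p = 2.3e-10). Within EMM the level rose 4.85-fold from P10 to P20, a log2 fold change of 2.28 (SE 0.11, adjusted p = 1.65e-10), while the change was −0.13 in Serum/LIF (95% interval −0.31 to 0.05) and 0.02 in 2i/LIF (−0.16 to 0.19). Against Serum/LIF, 2i/LIF was 1.85-fold higher at P10 and 2.04-fold higher at P20. The fibroblast marker sum was lower in EMM than in Serum/LIF and lowest in 2i/LIF, and its part in the Ccnd1 levels was not tested. With the rise of Ccnd1 in EMM, the sum of 6 primitive endoderm markers was 109 to 125 at P10 and 224 to 345 at P20. The ESC marker sum was lower at P20, both without overlap. In the group means Dab2 (20.7 to 119) made most of the first change, while Sox7 (31.9 to 33.0) hardly moved. Pou5f1 (27374 to 17940) made most of the other. The fibroblast sum was 286 to 364 at P10 and 142 to 190 at P20, and the trophoblast sum 11.5 to 22.5 and 26.8 to 35.8. The part of these markers in the rise of Ccnd1 was not tested.

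Ccnd1 was also the gene with the widest span of group means in this experiment, 4.98 on the log2 scale. Arhgap30 (Pearson r 0.975), Zfp956 (0.975) and Lad1 (0.974) followed it most closely over the 18 libraries, which again share groups. LTO1 stood at 0.42 and 0.28 in EMM against Serum/LIF for P10 and P20 and was not called in either.

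Ccnd2 had 169, 128 and 183 normalized counts in Serum/LIF and 7.23, 10.9 and 4.58 in EMM at P10, the latter from 9, 7 and 2 counts. By P20 its values were 221, 222 and 312 in Serum/LIF and 31.6, 38.0 and 22.5 in EMM. In 2i/LIF it had 70.6, 37.8 and 52.9 at P10 and 21.1, 20.7 and 17.2 at P20. Serum/LIF stood above both other media at each passage, and EMM lay below 2i/LIF at P10 and above it at P20, where the difference of 0.66 (95% interval 0.05 to 1.27, adjusted p = 0.0567) did not pass. EMM against Serum/LIF was −4.34 on the log2 scale at P10 (SE 0.32, adjusted p = 4.13e-09) and −3.01 at P20 (SE 0.24, adjusted p = 3.34e-08). 2i/LIF against Serum/LIF was −1.57 at P10 (SE 0.24, adjusted p = 1.45e-05) and −3.68 at P20 (SE 0.27, adjusted p = 1.97e-09). From P10 to P20 Ccnd2 rose in EMM by 1.98 (SE 0.36, adjusted p = 0.000309) and fell by 1.45 in 2i/LIF (SE 0.29, adjusted p = 0.00059), a fall that did not pass when only those 2 groups were fitted (adjusted p = 0.0143).

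The genes of chromosome 6, which holds Ccnd2 and Cdkn1b, were as a whole higher in the P20 2i/LIF libraries, with a median log2 fold change of 0.33 against Serum/LIF over the chromosome, and 0.27 to 0.35 in single libraries. P10 2i/LIF replicate 1 stood at 0.19 and the other P10 2i/LIF libraries at 0.04 and 0.06. The fall of Ccnd2 in 2i/LIF against Serum/LIF at P20 went against that shift and was −4.00 with the median of its own chromosome subtracted. The same subtraction took Cdkn1b from 0.64 to 0.31. In EMM against 2i/LIF at P20 it took Cdkn1b from 0.34 to 0.68, and Ccnd2, on the same chromosome, would move up there too. For the other genes of the 9, their chromosomes had medians between −0.12 and 0.14 in all passage comparisons.

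Ccnd3 changed its place between passages. It had 2732, 2456 and 2301 normalized counts in Serum/LIF, 3170, 3028 and 3092 in EMM and 1579, 1535 and 1515 in 2i/LIF at P10. At P20 it had 3928, 3741 and 3586 in Serum/LIF, 2071, 2197 and 2107 in EMM and 1969, 2512 and 2171 in 2i/LIF. EMM lay above Serum/LIF at P10 and below it at P20, with no overlap at either, and EMM and 2i/LIF overlapped at P20 only. The log2 fold change of EMM against Serum/LIF was 0.31 at P10 (SE 0.08, adjusted p = 0.00364) and −0.82 at P20 (SE 0.08, adjusted p = 4.16e-07). The call at P10 did not pass without EMM replicate 1 or Serum/LIF replicate 2 or 3 (adjusted p from 0.0163 to 0.0213), with library totals in place of TMM (adjusted p = 0.0508), or with either of the other filters on low counts. It was the only one of the 9 genes called between P10 and P20 in Serum/LIF, at 0.59 (SE 0.08, adjusted p = 0.000118), where 6.01% of all genes were called, 3.16% higher and 2.85% lower. It did not reach the fold threshold, which 1.84% of all genes passed. At P10 Bysl had −0.11 and at P20 −0.27 in EMM against Serum/LIF, neither called.

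Taken per kilobase of exon, the D cyclin mRNA changed in its make-up. In Serum/LIF Ccnd1 gave 61.9% of the summed D cyclin level at P10 and 49.6% at P20, and Ccnd3 gave 35.9% and 47.4%. In EMM at P10 Ccnd3 gave 92.3% and Ccnd1 7.46%, and at P20 these shares were 63.4% and 35.8%. In 2i/LIF Ccnd1 gave 83.3% and 78.2%. The sum itself was 382 normalized counts per kilobase in EMM at both passages, 791 and 902 in Serum/LIF, and 1085 and 1168 in 2i/LIF. In the time course the share of Ccnd3 went from 49.0% in Serum/LIF to 71.1% at 24 h. These shares describe group means and were not tested. They rest on the joined length of all annotated exons, 4709, 9409 and 8775 bases for Ccnd1, Ccnd2 and Ccnd3. With other lengths they would differ.

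**Figure D3:**
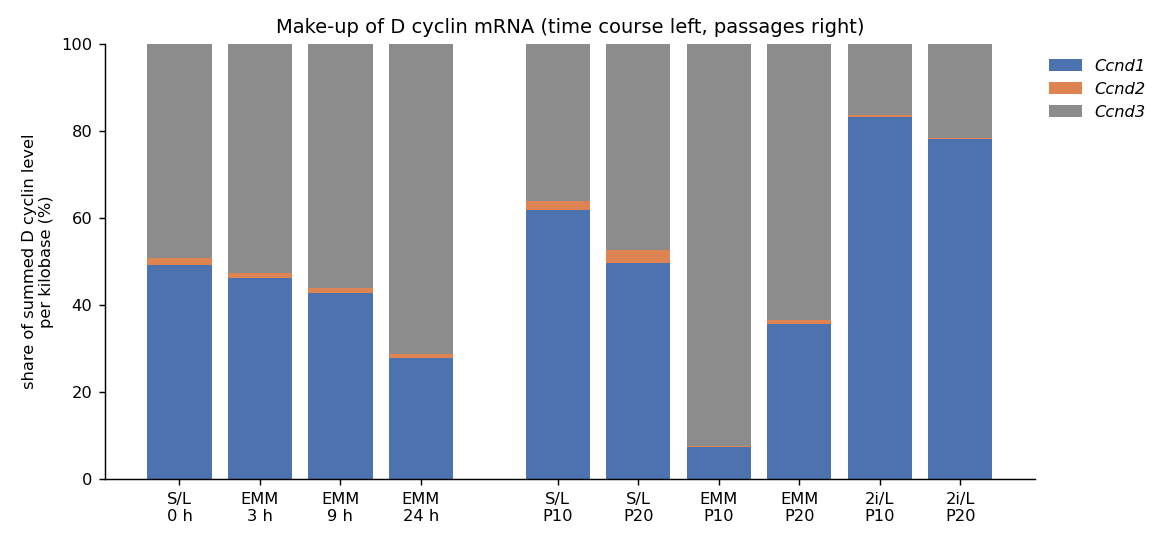
Share (percent) of each D cyclin in the summed mean level per kilobase of the 3 D cyclins, by group. Ccnd3 takes 92.3% in EMM at P10 and Ccnd1 83.3% in 2i/LIF at P10, and Ccnd2 stays at or under 2.96% in all 10 groups.

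Ccne1 had 4098, 3394 and 3533 normalized counts in Serum/LIF, 3465, 3418 and 3773 in EMM and 1237, 1098 and 1019 in 2i/LIF at P10. The P20 libraries had 3988, 3625 and 3845 in Serum/LIF, 2404, 2565 and 2252 in EMM and 1978, 1996 and 1761 in 2i/LIF. EMM and Serum/LIF overlapped at P10 and were apart at P20, and 2i/LIF was lowest at both passages. EMM against Serum/LIF was −0.05 at P10 (95% interval −0.23 to 0.13, adjusted p = 0.659) and −0.67 at P20 (SE 0.09, adjusted p = 9.78e-06). Set against Serum/LIF, 2i/LIF was at −1.72 for P10 (SE 0.09, adjusted p = 1.95e-11), a level 3.29-fold lower, and was 2.00-fold lower at P20 (adjusted p = 2.38e-08).

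Ccne2 had 184 to 327 normalized counts in the group means. Its log2 fold change in EMM was −0.25 at P10 (95% interval −0.51 to 0.01) and −0.35 at P20 (−0.60 to −0.11, adjusted p = 0.0229), and neither passed. The P20 value passed with library totals in place of TMM (adjusted p = 0.00625) and with at least 10 counts in every library (adjusted p = 0.00894). In 2i/LIF it was lower than in Serum/LIF at P10, at −0.44 (SE 0.12, adjusted p = 0.00474), a call lost without 2i/LIF replicate 2 or Serum/LIF replicate 1 or 2 (adjusted p from 0.0121 to 0.0425) and when only those groups were fitted. It rose by 0.83 in 2i/LIF from P10 to P20 (SE 0.12, adjusted p = 3.88e-05). Ints8, which shares 609 exon bases with it on the opposite strand, rose by 0.32 there.

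Cdkn1a differed between all 3 media. It had 867, 939 and 804 normalized counts in Serum/LIF, 456, 380 and 435 in EMM and 4830, 5403 and 4988 in 2i/LIF at P10. At P20 it had 893, 905 and 1016 in Serum/LIF, 436, 439 and 444 in EMM and 2491, 2853 and 2738 in 2i/LIF. The media did not overlap at either passage, and each EMM library lay below each Serum/LIF library. EMM against Serum/LIF was −1.03 at P10 (SE 0.09, adjusted p = 2.45e-08) and −1.09 at P20 (SE 0.08, adjusted p = 2.59e-08). 2i/LIF against Serum/LIF was 2.54 at P10 (SE 0.08, adjusted p = 8.37e-14) and 1.53 at P20 (SE 0.08, adjusted p = 3.82e-11). In 2i/LIF the level fell from P10 to P20 by 0.91 on the log2 scale (SE 0.08, adjusted p = 1.5e-07).

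Cdkn1b was the inhibitor that was higher in EMM. It had 562, 553 and 511 normalized counts in Serum/LIF, 1006, 907 and 777 in EMM and 741, 940 and 798 in 2i/LIF at P10. The P20 libraries had 716, 700 and 574 in Serum/LIF, 1314, 1264 and 1358 in EMM and 937, 1189 and 969 in 2i/LIF. Serum/LIF was lowest at both passages with no overlap, and EMM stood above all other groups at P20. EMM against Serum/LIF was 0.73 at P10 (SE 0.12, adjusted p = 4.8e-05) and 0.98 at P20 (SE 0.11, adjusted p = 3.12e-06). 2i/LIF was above Serum/LIF too, 1.52-fold at P10 and 1.56-fold at P20, and EMM against 2i/LIF was not called at either passage. In EMM the level rose by 0.54 from P10 to P20 (SE 0.11, adjusted p = 0.00123), a call lost without P10 EMM replicate 3 (adjusted p = 0.0111).

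Cdkn2a, whose p16Ink4a product blocks CDK4 and CDK6 and whose p19Arf product acts on p53 through Mdm2, had 161, 123 and 171 normalized counts in Serum/LIF, 67.5, 43.6 and 103 in EMM and 857, 523 and 716 in 2i/LIF at P10. At P20 it had 85.1, 83.6 and 138 in Serum/LIF, 46.5, 45.9 and 60.9 in EMM and 1008, 661 and 527 in 2i/LIF. The 2i/LIF libraries stood far above all others, and the EMM libraries lay below those of Serum/LIF of the same passage. 2i/LIF against Serum/LIF was 2.20 at P10 (SE 0.26, adjusted p = 7.81e-07) and 2.84 at P20 (SE 0.27, adjusted p = 6.8e-08), a level 7.18-fold higher at P20. EMM against Serum/LIF was −1.14 at P10 (SE 0.31, adjusted p = 0.00497). That call was lost without EMM replicate 1 or 2 or Serum/LIF replicate 1 or 3 (adjusted p from 0.0176 to 0.0337). At P20 the log2 fold change was −0.97 (SE 0.30, adjusted p = 0.0155), which did not pass. It did with DESeq2 (adjusted p = 0.00188), library totals (0.00754), no count filter (3.76e-07), the replicate block (0.00727) and those groups alone (0.00293).

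Cdkn2b had 103, 95.2 and 116 normalized counts in Serum/LIF and 30.5, 29.6 and 41.2 in EMM at P10, and 66.2, 78.6 and 133 against 39.1, 22.4 and 34.8 at P20. EMM lay below Serum/LIF without overlap at both passages. The log2 fold change was −1.66 at P10 (SE 0.26, adjusted p = 3.33e-05) and −1.53 at P20 (SE 0.24, adjusted p = 7.19e-05). In 2i/LIF it had 154, 141 and 128 at P10 and 120, 122 and 118 at P20. Neither difference from Serum/LIF passed, at 0.42 (95% interval −0.04 to 0.89) and 0.39 (−0.08 to 0.86). Without Serum/LIF replicate 3 at P20, the library with the highest fibroblast sum, the P20 value was 0.72 and passed (adjusted p = 0.00796). In EMM against Serum/LIF the fibroblast sum was lower, as were Ccnd1, Ccnd2 and the INK4 genes. In 2i/LIF the sum was lower still, while Ccnd1 and Cdkn2a were higher than in Serum/LIF at both passages. From P10 to P20 in EMM the sum fell, while Ccnd1 and Ccnd2 rose. The 3 collagen genes carried the difference of the sum between EMM and Serum/LIF. Col1a1 averaged 1895 ± 289 normalized counts in Serum/LIF and 10.8 ± 6.87 in EMM at P10 (SD, n = 3). Thy1 went the other way at P10, with 140 ± 26.0 in Serum/LIF and 307 ± 49.0 in EMM, most of the EMM sum, and at P20 it averaged 132 and 116. Lower in EMM, too, was the sum of 4 trophoblast markers (169 to 338 in Serum/LIF, 11.5 to 35.8 in EMM over both passages). In 2i/LIF the trophoblast sum was 234 to 315 at P10 and 11.7 to 29.7 at P20. The primitive endoderm sum was 172 to 226 in Serum/LIF, 109 to 125 in EMM and 91.5 to 103 in 2i/LIF at P10, without overlap. At P20 it was 226 to 315 in Serum/LIF and 224 to 345 in EMM, which overlapped, and 77.5 to 136 in 2i/LIF. The part of these markers in the results was not tested.

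Set directly against 2i/LIF, EMM cells were lower in Ccnd1, Cdkn1a, Cdkn2a and Cdkn2b at both passages. Ccnd1 was 32.1-fold lower at P10 (log2 fold change −5.00, SE 0.11, adjusted p = 3.62e-16) and 6.69-fold lower at P20 (−2.74, SE 0.09, adjusted p = 5.17e-14). Cdkn1a was 11.9-fold and 6.13-fold lower, and Cdkn2a 10.1-fold and 14.1-fold lower. Ccne1 was 3.18-fold higher in EMM at P10 (1.67, SE 0.09, adjusted p = 3.65e-11) and 1.26-fold higher at P20, where the call was lost without 2i/LIF replicate 3 or EMM replicate 2 (adjusted p = 0.0202 and 0.0197). In all, P10 had 2 genes higher in EMM and 5 lower, where 45.1% of all genes were called, 22.9% higher and 22.2% lower. P20 had 1 higher and 5 lower, where 48.6% were called, 25.7% higher and 22.9% lower. Cdkn1b at P20, at 0.34 (95% interval 0.10 to 0.58, adjusted p = 0.015), did not pass. It did with DESeq2 (adjusted p = 0.00821), with at least 10 counts in every library (0.00651), with no filter (0.00502), with the replicate block (0.00928) and without 2i/LIF replicate 2 (0.00339), and it was 0.68 with the median of chromosome 6 subtracted. All 7 of the P10 calls and 4 of the P20 calls passed the fold threshold, as did 22.1% and 25.3% of all genes.

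For 2i/LIF against Serum/LIF 8 of the 9 genes were called at P10, 4 in each direction, against 52.0% of all genes, 26.4% higher and 25.6% lower. At P20 7 were called, 4 up and 3 down, against 44.2% of all genes, 21.0% higher and 23.2% lower. At each passage 4 passed the fold threshold, where 26.4% and 22.3% of all genes did. The comparisons of a passage share their libraries, so they are not independent of each other.

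**Figure D4:**
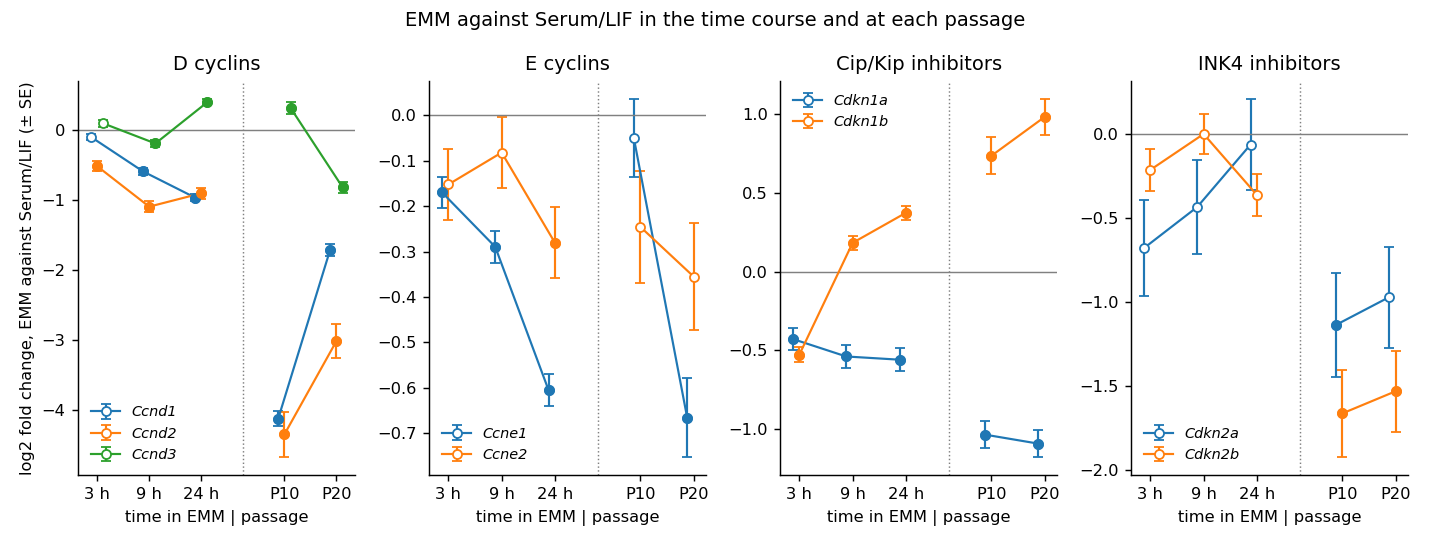
Log2 fold change ± SE of EMM against Serum/LIF at 3, 9 and 24 h (left of the dotted line) and at P10 and P20 (right), with a vertical scale of its own in each panel. Filled points passed an adjusted p of 0.01 in edgeR and open points did not. Ccnd1 (−4.12) and Ccnd2 (−4.34) are lowest at P10, and Cdkn1b is the gene that lies above 0 at 9 h, 24 h, P10 and P20.

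In the order of group means over the passage experiment, neighbouring groups often overlapped. For Ccnd1 the order was 2i/LIF at P20 and P10, Serum/LIF at P10 and P20, EMM at P20 and EMM at P10, where the passages overlapped within 2i/LIF and within Serum/LIF. For Cdkn1a it was 2i/LIF P10, 2i/LIF P20, Serum/LIF and EMM, with overlap between passages in the last 2 media. For Cdkn1b it was EMM P20 first and then 2i/LIF P20, EMM P10 and 2i/LIF P10, which overlapped in turn, above Serum/LIF P20 and P10. For Ccne2 each neighbouring pair overlapped except the lowest, EMM P10 and 2i/LIF P10. Per kilobase Ccne1 was the highest of the 9 genes in Serum/LIF and EMM, at 904 to 1435 normalized counts per kilobase. In 2i/LIF the highest was Cdkn1a at P10 (1428) and Ccnd1 at P20 (914).

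Whether the medium effects changed between passages was tested as an interaction, the P20 difference minus the P10 difference. For EMM against Serum/LIF, 1 gene had a higher and 2 a lower value at P20 (of all genes 14.7% called, 8.28% higher and 6.43% lower), and 2 passed the fold threshold, as did 8.40% of all genes. Ccnd1 shifted by 2.41 (SE 0.14, adjusted p = 8.34e-10), Ccnd3 by −1.13 (SE 0.11, adjusted p = 1.06e-06) and Ccne1 by −0.62 (SE 0.12, adjusted p = 0.00112). The shift of Ccnd2, 1.33 (SE 0.42, adjusted p = 0.0273), did not pass, though without the filter on low counts it did (adjusted p = 0.0095). For Cdkn1a and Cdkn1b the shifts were −0.06 (95% interval −0.31 to 0.20) and 0.25 (−0.10 to 0.59), and the intervals of Cdkn2a (−0.74 to 1.08) and Cdkn2b (−0.61 to 0.88) were wide. For EMM against 2i/LIF 3 genes shifted up and 3 down, against 32.3% of all genes, 16.9% up and 15.4% down, and 4 passed the fold threshold, as did 16.5%. For 2i/LIF against Serum/LIF 2 shifted up and 2 down, against 20.0% of all genes, 9.16% up and 10.9% down, and 2 passed the fold threshold, as did 9.32%.

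From P10 to P20, 3 of the 9 genes rose and 2 fell in EMM, where 25.3% of all genes were called, 13.3% higher and 11.9% lower. In 2i/LIF 3 rose and 2 fell, where 28.3% were called, 13.1% higher and 15.2% lower. The fold threshold was passed by 2 genes in EMM and 1 in 2i/LIF, and by 8.54% and 10.1% of all genes. In EMM Ccnd3 fell by 0.54 (SE 0.08, adjusted p = 5.01e-05) and Ccne1 by 0.56 (SE 0.09, adjusted p = 7.74e-05). In 2i/LIF Ccnd3 rose by 0.53 (SE 0.08, adjusted p = 6.02e-05) and Ccne1 by 0.78 (SE 0.09, adjusted p = 2.86e-06), so these cyclins went opposite ways in the 2 media. Bysl, which overlaps Ccnd3, also rose in 2i/LIF, by 0.54. Whether the counting used strand is not given in the sources used here, and the part of the overlapping genes in these results was not tested.

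The genes that act with these cyclins and inhibitors were read from 8 lists, described by counts and medians. Their counts stand beside shares of all genes of 18.2%, 19.7% and 22.2% lower and 16.3%, 18.5% and 21.8% higher at 3, 9 and 24 h. Against Serum/LIF in long culture those shares were, for EMM, 18.7% each way at P10, and 12.5% lower and 13.6% higher at P20. For 2i/LIF they were 25.6% lower and 26.4% higher at P10, and 23.2% and 21.0% at P20.

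CDKs (Cdk1, Cdk2, Cdk4, Cdk6) had 2 members higher and 1 lower at 3 h and 2 of each at 9 h. They had 1 member higher and 2 lower at 24 h in EMM, a median log2 fold change of −0.07, and 2 higher and none lower at P10 (median 0.28), Cdk2 at 0.81 (SE 0.09, adjusted p = 3.49e-07) and Cdk4 at 0.41. At P20 in EMM Cdk4 alone passed, at 0.33. In 2i/LIF against Serum/LIF 2 were higher and 1 lower at P10 (Cdk1, −0.62), and 3 were higher at P20. The medians were 0.46 and 0.43, with Cdk2 at 0.81 and 1.11. Cdk6, a partner of the D cyclins, was 0.95 and 0.58.

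The 3 other CDK inhibitors (Cdkn1c, Cdkn2c, Cdkn2d) had 2 members lower at 3 h, 1 of each at 9 h and 24 h, and median log2 fold changes of 0.26 at 24 h, 0.47 in EMM at P10 and 0.16 at P20. Cdkn1c, the imprinted p57 gene, fell to −0.33 at 3 h, −0.99 at 9 h and −1.68 at 24 h (SE 0.04, adjusted p = 3.79e-13). It was also lower in EMM at P10 (−0.75) and P20 (−0.91), and in 2i/LIF at P10 (−2.71) and P20 (−4.29). At P10 in 2i/LIF it was the list's called gene (median 0.10), while at P20 Cdkn2c (1.30) and Cdkn2d (0.72) were higher (median 0.72). Cdkn2c, an INK4 gene, was −0.89 at 3 h and 0.72 at 24 h, and 1.26 in EMM at P10 (SE 0.32, adjusted p = 0.00315). Of the 3 pocket proteins Rb1 was lower at 3 h (−0.26), Rb1 (−0.46) and Rbl1 (−0.30) were lower at 9 h, and none passed at 24 h. Rbl2 was 0.69 in EMM at P10, and Rbl1 was −0.33 at P20. In 2i/LIF against Serum/LIF Rbl2 was 1.77 at P10, Rbl1 was 0.91 and 0.93, and Rb1 was −1.29 at P20.

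Of 14 S-phase genes, which E2F factors are known to drive, 2 fell at 3 h, 8 at 9 h and 11 at 24 h, when 1 rose (median log2 fold change −0.31, against 0.00 over all genes). Of all genes 18.2%, 19.7% and 22.2% were lower at these times. Mcm5 (−0.44) and Mcm6 (−0.42), parts of the replicative helicase, fell most at 24 h, and Pcna rose (0.14). In EMM against Serum/LIF 1 rose at P10 and none fell (median 0.07), and 5 fell at P20 (median −0.09), Rrm2 at −0.59 and Cdc6 at −0.35. In 2i/LIF against Serum/LIF 4 fell and 1 rose at P10, while at P20 7 rose and none fell (median 0.27).

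Among 10 S to M cyclins and mitotic genes, 6 fell at 3 h, 8 at 9 h, when 1 rose, and 7 at 24 h, with Plk1 (−0.57) and Aurka (−0.41) the largest falls at 24 h and Bub1 (0.35) the gene that rose. At P10 in EMM 1 rose and 1 fell (median −0.04), and at P20 Bub1 alone passed (0.96). In 2i/LIF against Serum/LIF 9 of the 10 were lower at P10 (median −0.51) and none passed at P20 (median 0.07), Cdc20 being −1.03 at P10. From P10 to P20 in 2i/LIF 8 of 10 rose (median 0.69), among them Ccnb2 at 0.96, where 13.1% of all genes rose.

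The 10 E2F and DP factors had 2 higher and 4 lower at 3 h and 1 higher and 5 lower at 9 h. They had none higher and 4 lower at 24 h (median −0.10), 2 higher and 3 lower in EMM at P10, and 1 of each at P20. E2f2 was 1.38 at P10 (SE 0.12, adjusted p = 3.98e-08) and −0.57 at P20. In 2i/LIF 6 were lower and 1 was higher at P10, E2f7 at −1.10, and at P20 4 fell and 3 rose. The 7 genes for turnover of these proteins had 1 higher and 3 lower at 3 h, 1 lower at 9 h and 1 lower at 24 h (Skp2, which marks p27 for decay, at −0.21), 1 higher in EMM at P10 (Fzr1, 0.31) and none called in EMM at P20. In 2i/LIF against Serum/LIF 2 fell and 1 rose at P10, and 1 fell at P20 (Skp2, −0.58).

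The 9 p53 target genes, a list that does not hold Cdkn1a, had 4 higher and 1 lower at 3 h (median 0.14), when Cdkn1a fell, with Bax and Perp at 0.30 each and Btg2 at −0.27. They had 1 higher and 5 lower at both 9 h (median −0.19) and 24 h (median −0.21). After long culture they had none higher and 7 lower in EMM at P10 (median −0.45), and none higher and 6 lower at P20 (median −0.41). Perp, which codes for a membrane protein of cell death, was −1.86 and −1.58 in EMM, and Btg2, an antiproliferative gene, −1.33 and −1.31. In 2i/LIF against Serum/LIF 4 rose and 1 fell at P10, and 3 moved each way at P20. There Perp was −4.06 and −3.73, Trp53inp1 was 1.34 at P10, and Btg2 was 0.93 at P20.

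**Figure D5:**
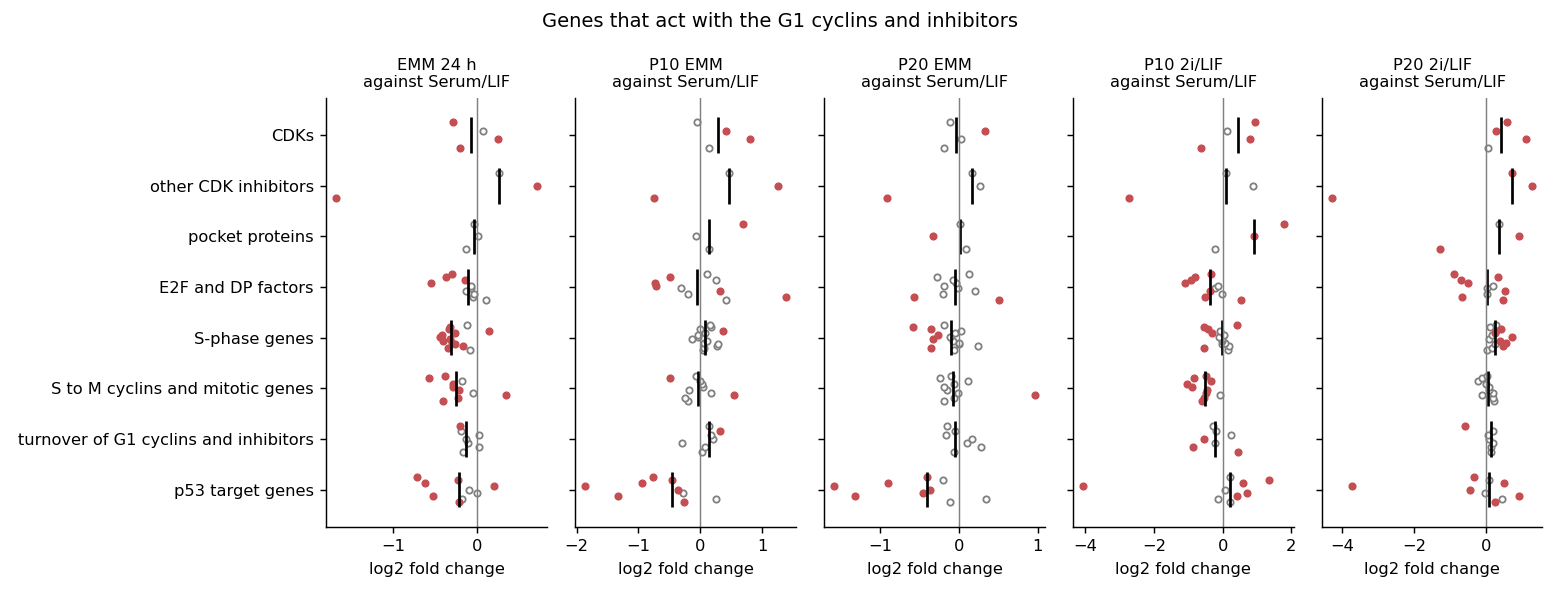
Log2 fold change of each gene of the 8 lists in 5 comparisons with Serum/LIF, with a horizontal scale of its own in each panel. Filled points passed an adjusted p of 0.01 in edgeR, open points did not, and black bars mark the list's median. The S-phase genes lie mostly left of 0 at 24 h in EMM (median −0.31), and the p53 targets, apart from Bax, lie left of 0 in EMM at P10 and P20 (medians −0.45 and −0.41).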

How the data were processed

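RNA was sequenced from 30 libraries of E14tg2a cells, 12 in the time course and 18 in the passage experiment, made with NEBNext Ultra II kits. For the time course the authors deposited raw counts per gene. Deposited passage values were estimated counts, 9.98% of them not whole, and these were rounded. The submitters' processing notes name STAR, featureCounts and DESeq2 for the time course, STAR, Salmon and DESeq2 for the passage experiment, and the build mm10, with no versions, while the study's methods name STAR and HTSeq. No columns of other samples were in the tables.

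Genes were tested in R 4.3.3 with edgeR 4.0.16: filterByExpr, TMM scaling, 1 quasi-likelihood model per experiment over all its groups, Benjamini-Hochberg adjustment over all tested genes, and an adjusted p under 0.01 as the threshold. The study also required a log2 fold change over 1, and that count is given separately as passing the fold threshold. The code was tested on simulated data. A normalized count is a count scaled by the library's TMM-adjusted size relative to the mean size of the experiment. Levels per kilobase divide it by the joined length of all annotated exons of the gene, which can exceed that of a single transcript. Alternatives were DESeq2 1.42.0, its size factors, library totals, other count filters, the groups of a comparison alone, a replicate block, each library left out, other thresholds, and the median of the gene's chromosome subtracted. Same-numbered libraries did not deviate together in general (r from −0.134 to 0.207 and from −0.212 to 0.299), so the block stayed an alternative. The exception was 2i/LIF at P10 and P20, whose 3 same-number pairs had r of 0.299, 0.134 and 0.224. Pairs of different numbers had r over 0.1 in 5 of 36 and 7 of 90, up to 0.280 and 0.198. The pair at 0.198 was EMM replicate 3 at P10 and 2i/LIF replicate 1 at P20, each the shallowest library of its group. Whether the numbers pair the 2i/LIF libraries is therefore not settled, and the part of depth was not tested. Replicate numbers are those of the sample titles, while the deposited time-course columns number Serum/LIF 1 to 3 and EMM 2 to 4. Matched by column number, Serum/LIF shares 2 numbers with each EMM time (r from −0.132 to 0.280), and no block was fitted on that numbering. The 9 genes and the lists were chosen with earlier results of these data known. From each list at most the 2 largest called rises and the 2 largest called falls were eligible to be named in a comparison, and the 3 genes most like a member were those with the highest Pearson r. Promoter sequences came from RefSeq, GRCm38.p6. They matched 6 of the 9 genes, not Ccnd1, Ccnd2 or Ccne2.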

Additional observations from a re-analysis of the deposited data

Results flagged for a closer look

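Whether a medium difference changed between P10 and P20 was tested in edgeR as the P20 difference minus the P10 difference (log2 scale, Benjamini-Hochberg adjusted). Of all tested genes 14.7% were called for EMM against Serum/LIF, 32.3% for EMM against 2i/LIF and 20.0% for 2i/LIF against Serum/LIF, where 3, 6 and 4 of the 9 genes were. For EMM against Serum/LIF the shift was 2.41 for Ccnd1 (adjusted p = 8.34e-10), −1.13 for Ccnd3 (adjusted p = 1.06e-06) and −0.62 for Ccne1 (adjusted p = 0.00112). The gap of Ccnd1 narrowed, that of Ccnd3 changed sign, and that of Ccne1 was present at P20.

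For EMM against 2i/LIF the D cyclins shifted by 2.26 (Ccnd1, adjusted p = 1.75e-09), 3.43 (Ccnd2, adjusted p = 1.28e-05) and −1.07 (Ccnd3, adjusted p = 1.19e-06). The E cyclins shifted by −1.34 (Ccne1, adjusted p = 2.73e-07) and −0.74 (Ccne2, adjusted p = 0.00216), and Cdkn1a by 0.96 (adjusted p = 5.85e-06).

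For 2i/LIF against Serum/LIF the shift was −2.10 for Ccnd2 (adjusted p = 0.000312), 0.72 for Ccne1 (adjusted p = 0.000332), 0.63 for Ccne2 (adjusted p = 0.009) and −1.02 for Cdkn1a (adjusted p = 7.13e-06). The Ccne2 value was past the threshold in 4 of 12 fits that each left out 1 library, and the adjusted p in the other 8 was 0.0132 to 0.0343. With the replicate block it did not pass either (adjusted p = 0.0115). That block ties same-numbered libraries of all groups alike, so it is not a paired test of the 2i/LIF libraries. These 3 contrasts share libraries, and groups of 3 are too small to test for a single library that stands apart.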

How the results depend on the processing

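Calls that hung on 1 library are given beside their results. With a log2 fold change over 1 also required, the genes called were 0 at 3 h, 1 at 9 h, 0 at 24 h and 0 between 3 h and 24 h. They were 4 for 2i/LIF against Serum/LIF at P10, 4 at P20, 4 for EMM against Serum/LIF at P20, between P10 and P20 0 in Serum/LIF, 2 in EMM and 1 in 2i/LIF, and 2 for the passage difference of 2i/LIF against Serum/LIF. Between passages in Serum/LIF 2 genes were called without the count filter or at an adjusted p under 0.05, against 1. Library totals moved the median of all genes by −0.118 in 2i/LIF against Serum/LIF at P20, and with them Ccnd1 at 3 h passed (−0.17, adjusted p = 0.00479). Cdkn2a in EMM against Serum/LIF at P20 passed with DESeq2 (adjusted p = 0.00188), library totals (0.00754), no count filter (3.76e-07, with an SE of 0.17) and those groups alone (0.00293). Ccne1 at 3 h did not pass without the count filter (adjusted p = 0.0125).

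The values that changed sign had not passed the test in any of these fits. Cdkn2b at 9 h was 0.0046 with DESeq2 size factors, 0.0242 without the filter, 0.0033 with DESeq2 and 0.0111 with those groups alone. With library totals Cdkn2b between passages in EMM was 0.0141 and Cdkn1b in the passage difference of 2i/LIF against Serum/LIF −0.0375. Without the filter the passage difference was 0.0204 for Cdkn1a (EMM against Serum/LIF) and 0.0288 for Cdkn2b (2i/LIF against Serum/LIF). Leaving out 1 library gave ranges of −0.0688 to 0.0934 for Cdkn2b at 9 h, −0.29 to 0.19 for Cdkn2a at 24 h, −0.11 to 0.0481 for Ccne1 in EMM against Serum/LIF at P10 and −0.15 to 0.0374 for Ccnd3 in EMM against 2i/LIF at P20. Between passages they were −0.000128 to 0.14 for Ccne1 in Serum/LIF, −0.0219 to 0.12 for Cdkn1a and −0.22 to 0.16 for Cdkn2b in EMM, and −0.0376 to 0.0624 for Ccnd1 and −0.24 to 0.24 for Cdkn2a in 2i/LIF. For the passage difference of EMM against Serum/LIF they were −0.13 to 0.0115 for Cdkn1a, −0.0619 to 0.42 for Cdkn2a and −0.0711 to 0.46 for Cdkn2b. For that of 2i/LIF against Serum/LIF they were −0.16 to 0.0109 for Ccnd3, −0.0843 to 0.13 for Cdkn1b and −0.23 to 0.30 for Cdkn2b. The cause was not tested.

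Without Serum/LIF replicate 3 at P20, which had the highest fibroblast sum, the genes called were 7 for EMM against Serum/LIF (1 higher, 6 lower, as with it) and 8 in place of 7 for 2i/LIF against Serum/LIF. Subtracting the median of a gene's own chromosome moved 11 passage values by over the gene's spread and left 97 within it. That spread is the SD of log2 CPM between libraries of a group, pooled over the groups, and not the SE of the fold change.

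A replicate block (r was over 0.1 in 5 of 18 and 3 of 45 same-number pairs, the latter all between 2i/LIF at P10 and P20) gave 8 called genes in place of 7 for EMM against Serum/LIF at P20 (Cdkn2a gained), 7 in place of 6 for EMM against 2i/LIF at P20 (Cdkn1b gained) and 3 in place of 4 for the passage difference of 2i/LIF against Serum/LIF (Ccne2 lost), and the same number in the other comparisons. The low counts of Ccnd2 in EMM at P10 (9, 7 and 2) limit the precision of its fold changes there.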
